A study of Mus musculus with 12 samples.

Results

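The retinoid X receptor (RXR) was profiled in mouse embryonic stem (ES) cells by ChIP-seq, the sequencing of DNA recovered with an antibody against the protein. Of its merged regions, 436 of 3129 (13.9%) carried a peak with the ligand GW3965 and in no other ES condition. These GW3965-only regions were chosen as follows. Peaks whose centre was annotated as a simple or low-complexity repeat, a satellite, ribosomal RNA, or an LTR, SINE or LINE element were dropped, as were mitochondrial peaks. The remaining peaks of the 4 ES RXR lists were merged where they shared at least 1 bp, and a region was kept if it held a GW3965 peak and no peak of the other 3 lists. These regions were thus selected on the RXR peak calls themselves, so presence with GW3965, absence elsewhere and the peak scores are descriptions without a test.

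All cells were wild type E14 ES cells, a feeder-free line grown in serum with leukemia inhibitory factor (LIF), or derivatives of them. The ES groups were the control (labelled CTRL; the protocol names dimethylsulfoxide as vehicle), GW3965, LG268 and all-trans retinoic acid (RA), each ligand at 1 µM for 24 h. RXR and the histone mark H3K27ac were each profiled in 1 library per ES group. RXR was also profiled in 2 libraries at day 8 and 2 at day 16 of neural differentiation through embryoid bodies, with RA at 5 µM. Nothing in the labels says that the day libraries came from separate cultures.

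A nuclear receptor itself, RXR pairs with other nuclear receptors on DNA, including the retinoic acid receptors (RAR), the liver X receptors (LXR) and the peroxisome proliferator-activated receptors (PPAR). GW3965 is a synthetic LXR agonist, LG268 a synthetic RXR agonist, and RA the ligand of RAR. LXR with RXR controls genes of cholesterol efflux and lipid synthesis, and H3K27ac marks active promoters and enhancers.

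The GW3965 list stood apart from the other ES RXR lists. It held 940 peaks, of which 298 (31.7%) were dropped and 642 kept, and LTR elements took 16.4% of its peaks against 2.48% in control, 2.58% with LG268 and 2.74% with RA. The other lists kept 847 (control), 1774 (LG268) and 1650 (RA) peaks. Of the 642 kept GW3965 peaks, 436 formed the GW3965-only regions and 206 lay in 205 regions shared with another ES list. Every GW3965-only region rests on this 1 library, so none could be examined without it, and the ligand and the library cannot be told apart. How deeply each library was sequenced is unknown, since no read totals come with the lists, and a region without a peak in a list may hold RXR signal under that list's calling threshold. H3K27ac peaks lay within 1 kb of the transcription start site (TSS) of 5 of 10 ES cell markers in control and 7 of 10 with GW3965, among them Pou5f1 and Sox2. They did so at 1 of 12 markers of other cell types in each, Pax6.

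Sequence was at hand where a region overlapped a RefSeq promoter window, which covers 250 bases before and 50 after an annotated start (build GRCm38.p6, the assembly of mm10). This held for 19 of the 436 regions, with 23 windows, and 417 had none. The stretches of 3 regions are shown 5′ to 3′ on the strand of the annotated gene. They are the region with the highest score of all 436, an intergenic region with the same hexamer, and, of the 19 regions with a window, the one nearest to Utf1, a pluripotency gene. Capitals mark TGACCT, the reverse complement of AGGTCA, the hexamer that nuclear receptors recognise. The first is chr6:5362065-5362334 (plus strand, in the window of the predicted gene Gm38762, nearest annotated gene Asb4), the second chr17:23967063-23967314 (plus strand, Gm41546, nearest gene Prss30) and the third chr7:139949868-139950047 (plus strand, Gm16201, nearest gene Utf1). The third holds no searched motif.
Asb4 region: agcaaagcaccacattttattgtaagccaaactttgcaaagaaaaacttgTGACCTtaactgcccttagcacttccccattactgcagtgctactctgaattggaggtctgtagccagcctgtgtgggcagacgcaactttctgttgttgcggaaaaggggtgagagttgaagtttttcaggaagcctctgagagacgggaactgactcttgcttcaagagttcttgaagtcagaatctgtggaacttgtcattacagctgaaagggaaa
Prss30 region: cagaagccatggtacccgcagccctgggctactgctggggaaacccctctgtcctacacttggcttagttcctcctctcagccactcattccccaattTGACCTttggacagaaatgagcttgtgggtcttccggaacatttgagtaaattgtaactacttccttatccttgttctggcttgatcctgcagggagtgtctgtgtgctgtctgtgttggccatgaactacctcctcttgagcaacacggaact
Utf1 region: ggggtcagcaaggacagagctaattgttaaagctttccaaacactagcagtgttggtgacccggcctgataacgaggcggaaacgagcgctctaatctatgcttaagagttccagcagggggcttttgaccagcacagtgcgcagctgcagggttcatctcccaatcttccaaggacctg

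AGGTCA on either strand was in 8 of the 23 windows (34.8%) and in 5340 of all 32851 promoter windows (16.3%). In 5 of the 8 the hexamer lay in the bases inside the GW3965-only region, and in the other 3 only in window bases outside it. This is a description of few windows, some of which share a region. The longer motifs that contain this hexamer were in 0 of 23 windows. They are TCAAGGTCA, recognised by estrogen-related receptors, and the direct repeats of AGGTCA with 1, 4 or 5 bases between the copies (DR1, DR4 and DR5), of which DR4 is the LXR type. They were in 139, 13, 5 and 3 of all windows. The octamer ATTTGCAT, bound by POU factors, was in 0 of 23 windows against 1.74% of all, and the Krüppel-like factor box GGGTGTGG was in 1 of 23 against 3.56%. All motifs were searched on both strands, and a missing match says only that these letters are not in the window.

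GW3965-only regions lay mostly far from promoters. Of the 436, 210 (48.2%, against 37.6% of all merged regions) were annotated as intergenic and 193 (44.3%, against 36.5% of all) as intronic. A further 23 were in a promoter (5.28%, against 20.5% of all), 6 in a 3′ UTR, 3 at a transcription end and 1 in an exon. A TSS lay within 1 kb of 32 of the 436 (7.34%, exact 95% interval 5.07 to 10.2%). The nearest TSS was 1 to 10 kb away at 103 (23.6%, against 16.6% of all) and 10 to 100 kb away at 246 (56.4%, against 42.2%). At 55 regions (12.6%, against 13.1% of all) it was beyond 100 kb. The share beyond 100 kb was thus not above that of all merged regions. Over all 3129 merged regions the share within 1 kb was 28.1%. It was 31.7% in the regions GW3965 shared with another list, 33.2% in LG268-only regions and 28.0% in RA-only regions. The GW3965-only share was lower than each of these (Fisher's exact test, two-sided, over regions), with odds ratios of 0.171 (95% interval 0.107 to 0.272, adjusted p = 1.32e-14), 0.160 (adjusted p = 2.16e-26) and 0.204 (adjusted p = 3.60e-18). Such a test compares regions of single lists and not conditions, which have 1 library each. The median distance to a TSS was 21108 bp, against 9435 bp in the shared, 11841 bp in the LG268-only and 16192 bp in the RA-only regions. The centre of 4 regions (0.92%) lay in a CpG island, against 5.91% of all regions and 10.7% of the shared ones.

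**Figure D1:**
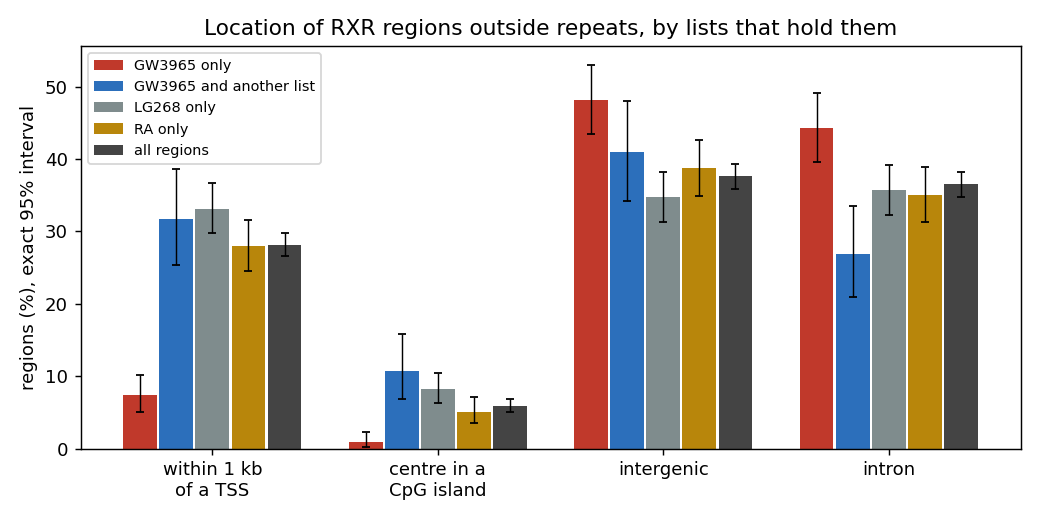
Share of regions (percent, y axis) within 1 kb of a TSS, centred in a CpG island, intergenic or intronic, per region class (colour), with exact 95% intervals as bars. GW3965-only regions had a TSS within 1 kb in 7.34% and shared regions in 31.7%.

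The regions were spread over 20 chromosomes and had 415 different nearest genes. On chromosome 11 lay 46 (10.6%, against 13.0% of all merged regions) and on X 2 (0.459%, against 0.735%). Their median width was 221 bp (197 to 428), and 119 (27.3%) had the list's smallest width of 197 bp. The median width of the highest peak was 231 bp in shared, 209 bp in LG268-only, 202 bp in RA-only and 220 bp in all regions. Although the dropped classes exclude LTR, SINE and LINE elements, 5 regions had their centre in a DNA transposon and 1 in a signal recognition particle RNA repeat.

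Within the GW3965 list the scores of these regions ran from 2.25 to 27.46 with a median of 6.11, where the score is the authors' value and its scale is not stated. The best rank was 22 of 940 and the median rank 521. Only 7 regions were among the 50 highest peaks and 21 among the 100 highest, while 240 ranked beyond 470. The peaks shared with another list had a median of 6.50 and a highest score of 53.6. With the list ordered by score and cut into 10 blocks of 94 peaks, the highest block held 19 GW3965-only, 23 shared and 52 dropped peaks, and the lowest block held 53, 18 and 23.

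**Figure D2:**
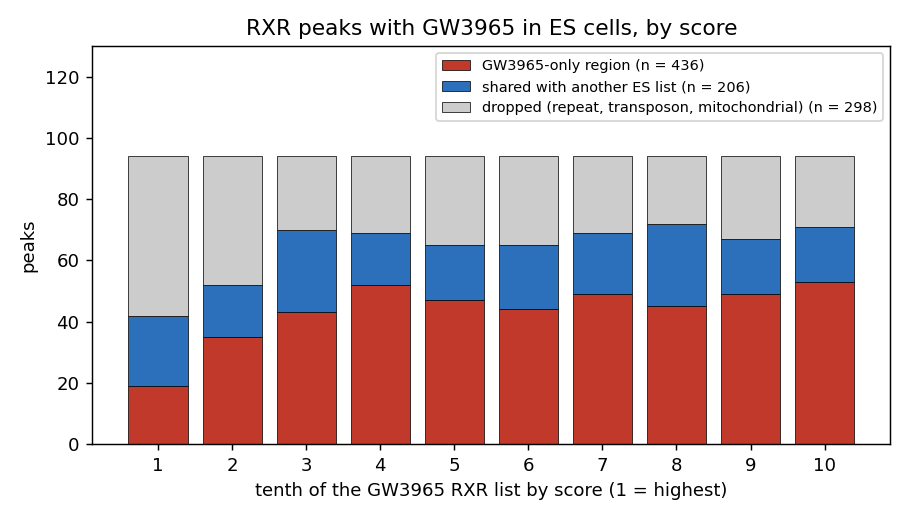
Number of GW3965 RXR peaks (y axis) in each of 10 blocks of 94 peaks ordered by score (x axis, 1 is the highest), split into GW3965-only, shared and dropped peaks. The 19 GW3965-only peaks of the highest block are fewer than in any other block, and the dropped class is tallest there with 52.

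At the edge of the rule, the regions closest to a kept peak of another list were those near 4933433G15Rik (79 bp away), Tecpr2 (296 bp) and Hsd17b3 (440 bp). Just outside it, the shared regions with the smallest overlap were near 4921511C10Rik (22 bp), Lefty1 (32 bp) and Meox1 (47 bp). A kept peak of another ES list lay within 1 kb of 8 regions. Separately, 13 regions (2.98%) overlapped a peak of another ES list that had been dropped as a repeat, so 423 were free of any other ES RXR peak. Such an overlap was found at 1.95% of all merged regions and 5.95% of control-only regions. Of those 13 GW3965-only regions, 10 were in all 4 day lists. The regions near Kat7, Kcnh1, Atg4c and Rassf9 are among the 13.

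H3K27ac was found at few GW3965-only regions. A control H3K27ac peak overlapped 32 of 436 (7.34%), against 28.8% of all merged regions. A GW3965 H3K27ac peak overlapped 25 (5.73%), against 26.0% of all. The control mark overlapped 95 of 205 shared regions (46.3%), 258 of 754 LG268-only regions (34.2%) and 159 of 633 RA-only regions (25.1%). The odds ratios of GW3965-only regions were 0.0917 (95% interval 0.0583 to 0.144, adjusted p = 3.78e-28), 0.152 (adjusted p = 7.97e-28) and 0.236 (adjusted p = 8.71e-15) by two-sided Fisher's exact test. For the GW3965 mark the 3 classes were at 41.0%, 30.2% and 23.1%, with odds ratios by Fisher's exact test of 0.0876 (adjusted p = 2.16e-26), 0.140 (adjusted p = 2.46e-26) and 0.203 (adjusted p = 1.81e-15).

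Merged shared regions were wider (median 360 bp), and with only the centre of each region's highest peak counted the odds ratios against them were 0.138 for the control mark and 0.149 for the GW3965 mark. Since H3K27ac is common at promoters, the shares were also taken by distance to a TSS. Near a TSS, 17 of 32 GW3965-only regions (53.1%) overlapped control H3K27ac, against 84.6% of the shared regions. Beyond 1 kb, 15 of 404 (3.71%) did, against 28.6% of the shared, 15.9% of the LG268-only and 7.46% of the RA-only regions. Among these distal regions the odds ratios of Fisher's exact test were 0.0964, 0.204 and 0.479 for the control mark and 0.0751, 0.179 and 0.412 for the GW3965 mark. Against RA-only regions the distal difference was thus smaller (Fisher's exact test, adjusted p = 0.0186 for the control mark and 0.0170 for the GW3965 mark). The LG268 H3K27ac list overlapped 16 GW3965-only regions, against 20.3% of all merged regions, and the RA H3K27ac list 25, against 24.4%.

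Distances gave the same order of classes. The nearest control H3K27ac peak lay at a median of 15431 bp from a GW3965-only region, 94 bp from a shared, 2862 bp from an LG268-only and 12166 bp from an RA-only region. The nearest GW3965 H3K27ac peak lay at 18722 bp, against 151, 6960 and 16404 bp. The control mark was within 1 kb of 94 GW3965-only regions (21.6%, against 42.6% of all merged regions) and 129 shared ones (62.9%). The GW3965 mark was within 1 kb of 81 (18.6%, against 39.0% of all). Of the 94, 62 lay beside a control peak without overlapping it, which is 14.2% of the GW3965-only regions against 13.8% of all. A control peak stood on each side of 8 of the 62, against 3 of 34 in shared, 10 of 97 in LG268-only and 9 of 73 in RA-only regions. The nearest control H3K27ac peak was 10 to 100 kb away at 198 regions (45.4%, against 32.9% of all) and over 100 kb away at 60 (13.8%, against 11.7% of all and 15.3% of RA-only regions).

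**Figure D3:**
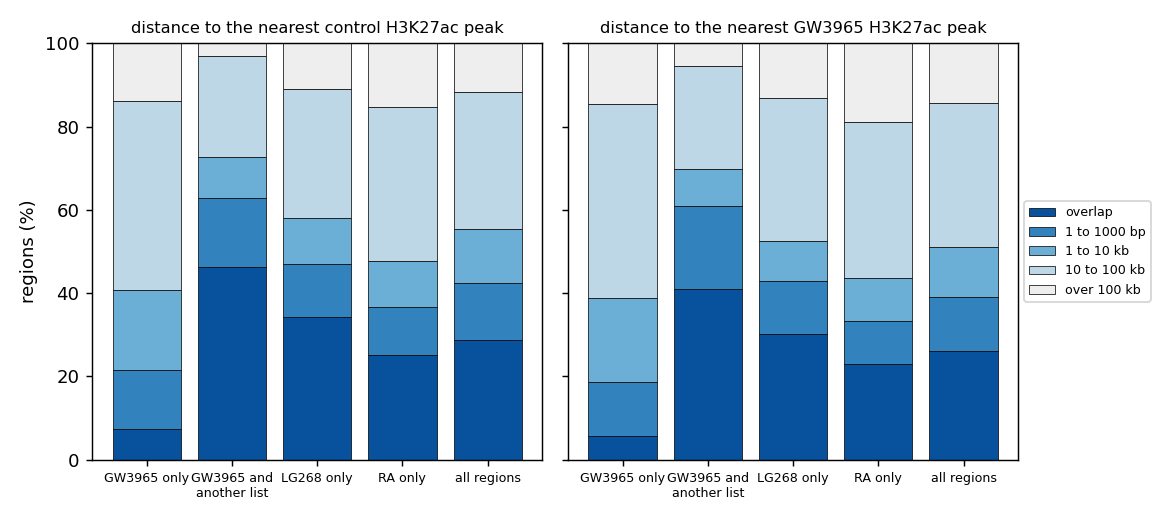
Share of regions (percent, y axis) per region class (x axis), stacked by distance to the nearest H3K27ac peak of the control (left) and GW3965 list (right), from overlap to over 100 kb. GW3965-only regions overlapped the control mark in 7.34% and the shared regions in 46.3%.

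Kept GW3965 regions were divided into 3 score classes of near-equal size. Among GW3965-only regions the control mark overlapped 9 of 130 in the highest score class, 7 of 154 in the middle and 16 of 152 in the lowest. The shared regions had 42 of 77, 24 of 64 and 29 of 64.

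Both H3K27ac lists overlapped 19 regions, the control list alone 13, the GW3965 list alone 6, and 398 had neither. Over all 3129 merged regions these counts were 722, 179, 93 and 2135. The 6 with the GW3965 mark alone were nearest to Rassf9, Myb, Mir3964, Urm1, Abcg1 and Gpr12, and were singled out after their values were seen. Their RXR scores were 8.47, 7.79, 7.52, 5.98, 5.87 and 4.93. A control H3K27ac peak lay 122 bp from the Myb region, 94 bp from the Urm1 region and 694 bp from the Abcg1 region. At these 3, both lists thus held a peak within 1 kb. At Abcg1 that control peak had a GW3965 peak at nearly the same place. The overlap there came from a separate GW3965 peak with a score of 4.08 (rank 15429 of 17759). The regions near Rassf9, Mir3964 and Gpr12 are among the 13 that overlap a dropped repeat peak of another list, so without those 13 the GW3965 mark alone was at 3 regions and the control mark alone at 11. Single H3K27ac libraries give no spread for these differences.

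The 25 highest GW3965-only regions had scores from 12.48 to 27.46. Of them 16 were intergenic and 9 intronic, none lay within 1 kb of a TSS, and none overlapped the control or the GW3965 mark. A control peak lay within 1 kb of 7 of the 25, against 42.6% of all merged regions. A GW3965 peak did so at 4, against 39.0% of all. The highest, at chr6:5362007-5362334 in mm10, lay 21216 bp upstream of Asb4, which encodes an ankyrin repeat protein with a SOCS box, and had a score of 27.46 (rank 22). Its nearest H3K27ac peaks were 63391 bp away in control and 36339 bp away with GW3965. The second was nearest to the apolipoprotein L gene Apol7a (score 22.68) and the third to Zfp42 (22.32). The fourth was 16350 bp upstream of F5, which encodes coagulation factor V (21.71), in intron 8 of 15 of an overlapping transcript.

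Several of these regions lay close beside acetylated chromatin. The region near Zmynd8, which encodes a chromatin reader (score 12.78, intron 14 of 22), had control H3K27ac peaks 75 bp away and GW3965 peaks 79 bp away. The region near Ranbp17, a nuclear transport receptor gene (18.68), had them at 387 and 126 bp. A second region near Ranbp17 had a score of 6.09. The Kat7 region (15.98), near a gene for a histone acetyltransferase, overlapped an RA H3K27ac peak and had control and GW3965 peaks at 515 and 396 bp. The regions near 4931440L10Rik, Tmem131, Cnpy1 and B330016D10Rik had a control peak within 1 kb, at 626, 563, 140 and 352 bp. Their nearest GW3965 peaks were at 20551, 45807, 106341 and 5318 bp. Those control peaks scored low, at 4.09, 2.49, 3.24 and 4.70 (ranks 18532, 21217, 20366 and 16855 of 21418). The GW3965 H3K27ac list was shorter, with 17759 peaks, and a mark under its calling threshold may have been missed. The region near Mylip had the GW3965 peak closer, at 824 bp, and the control peak at 1434 bp. The regions near Rbm14 (19.35), Slc15a1 (18.58), Atf3 (13.90) and Gnpnat1 (12.48) had no control mark within 5 kb.

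Among the regions within 1 kb of a TSS, the highest scores were at Cst3 (cystatin C, 12.04), Dido1 (11.45), Slc27a1 (a fatty acid transporter, 9.18), Stmn1 (stathmin 1, 8.13) and Jdp2 (7.79). The Cst3 and Stmn1 regions overlapped all 4 H3K27ac lists and the Dido1 region overlapped 3 of them, with the LG268 peak 33 bp away. At Slc27a1 the nearest control peak was 1018 bp away. The region 6 bp from the TSS of 4931406C07Rik (7.65) had its nearest H3K27ac peak of any list 4452 bp away. Away from promoters, the highest region overlapping the control or GW3965 mark was near Ncam1 (neural cell adhesion molecule 1, 12.25), with the control mark overlapping and the GW3965 mark 939 bp away. The region near Trp53, which encodes the tumour suppressor p53 (10.00), overlapped the control mark and lay 38 bp from the GW3965 mark.

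Genes were then read from lists of pathways, counting a gene when it was the nearest gene of a region within 100 kb of its TSS. Of 14490 genes in the background, 365 (2.52%) had a GW3965-only region. The background shares were 1.27% for shared, 4.40% for LG268-only, 3.55% for RA-only and 1.01% for control-only regions. The lists were drawn up with earlier results of these data known, so their counts are descriptions.

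Of 12 naive pluripotency factors, which hold ES cells in their ground state, 5 had a GW3965-only region. The shared, LG268-only, RA-only and control-only classes had 0 of 12 each, which is near their background shares of 1.01 to 4.40%. Zfp42 (also called Rex1, a zinc finger marker of naive cells) had a region at chr8:43320723-43321002, 13853 bp upstream (score 22.32). The nearest control H3K27ac peak was 139434 bp away and the nearest GW3965 peak 13872 bp away. Esrrb, an orphan nuclear receptor, had a region 80195 bp from its TSS at chr12:86501663-86502015 (13.11), with a control peak 31123 bp and a GW3965 peak 3065 bp away. At both genes the GW3965 mark was thus called closer than the control mark, by H3K27ac peaks with scores of 6.35 (Zfp42) and 3.23 (Esrrb) in single libraries.

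Klf2, a Krüppel-like transcription factor, had 3 regions. They lay 2807 bp upstream (score 11.36), 15376 bp downstream (5.10) and 35352 bp downstream (4.06) of the TSS. The last of these was in intron 22 of 23 of another transcript. The first had control and GW3965 H3K27ac peaks at 2728 and 2748 bp, the second at 328 and 14816 bp, and the third at 19146 and 34804 bp. The region of Prdm14, a repressor of differentiation, was 42083 bp from its TSS (8.68), with the nearest control and GW3965 peaks at 92527 and 92680 bp. The region of Tfcp2l1, a grainyhead family factor, was 20257 bp from its TSS (6.34), with a control peak at 2208 bp and the nearest GW3965 peak at 188510 bp. Of the 7 regions at these 5 genes, the GW3965 mark was thus the closer of the 2 at Zfp42 and Esrrb, and the control mark at Tfcp2l1, the 3 Klf2 regions and Prdm14. Within 10 kb of a TSS, 1 of the 12 genes had a region. Tbx3, another of the 12, had a GW3965 peak (4.99) that was dropped as a SINE.

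Of 11 core pluripotency and LIF pathway genes, 4 had a GW3965-only region, 2 an LG268-only region (Socs3 and Sox2), 1 an RA-only region (Il6st) and 1 a shared region (Socs3). With only the peaks above each list's median score, the GW3965-only count was 1. The region of Pou5f1 (Oct4, the central pluripotency factor) was 1993 bp upstream of its TSS (score 10.73), with a control H3K27ac peak 114 bp and a GW3965 peak 1951 bp away. That control peak was weak, with a score of 3.36 and rank 20200 of 21418. The region of Utf1, a chromatin-associated factor of ES cells, whose bases are printed with the sequences, was 6112 bp from its TSS (4.50). It had peaks within 1 kb in control (621 bp), LG268 (557 bp) and RA (532 bp), and at 4886 bp with GW3965. The region of Lifr, the LIF receptor, was 12664 bp upstream (6.38) and that of Il6st (gp130, the shared signalling subunit) 23829 bp upstream (2.92). A weak control H3K27ac peak (score 2.98, rank 20712 of 21418) overlapped the Il6st region.

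**Figure D4:**
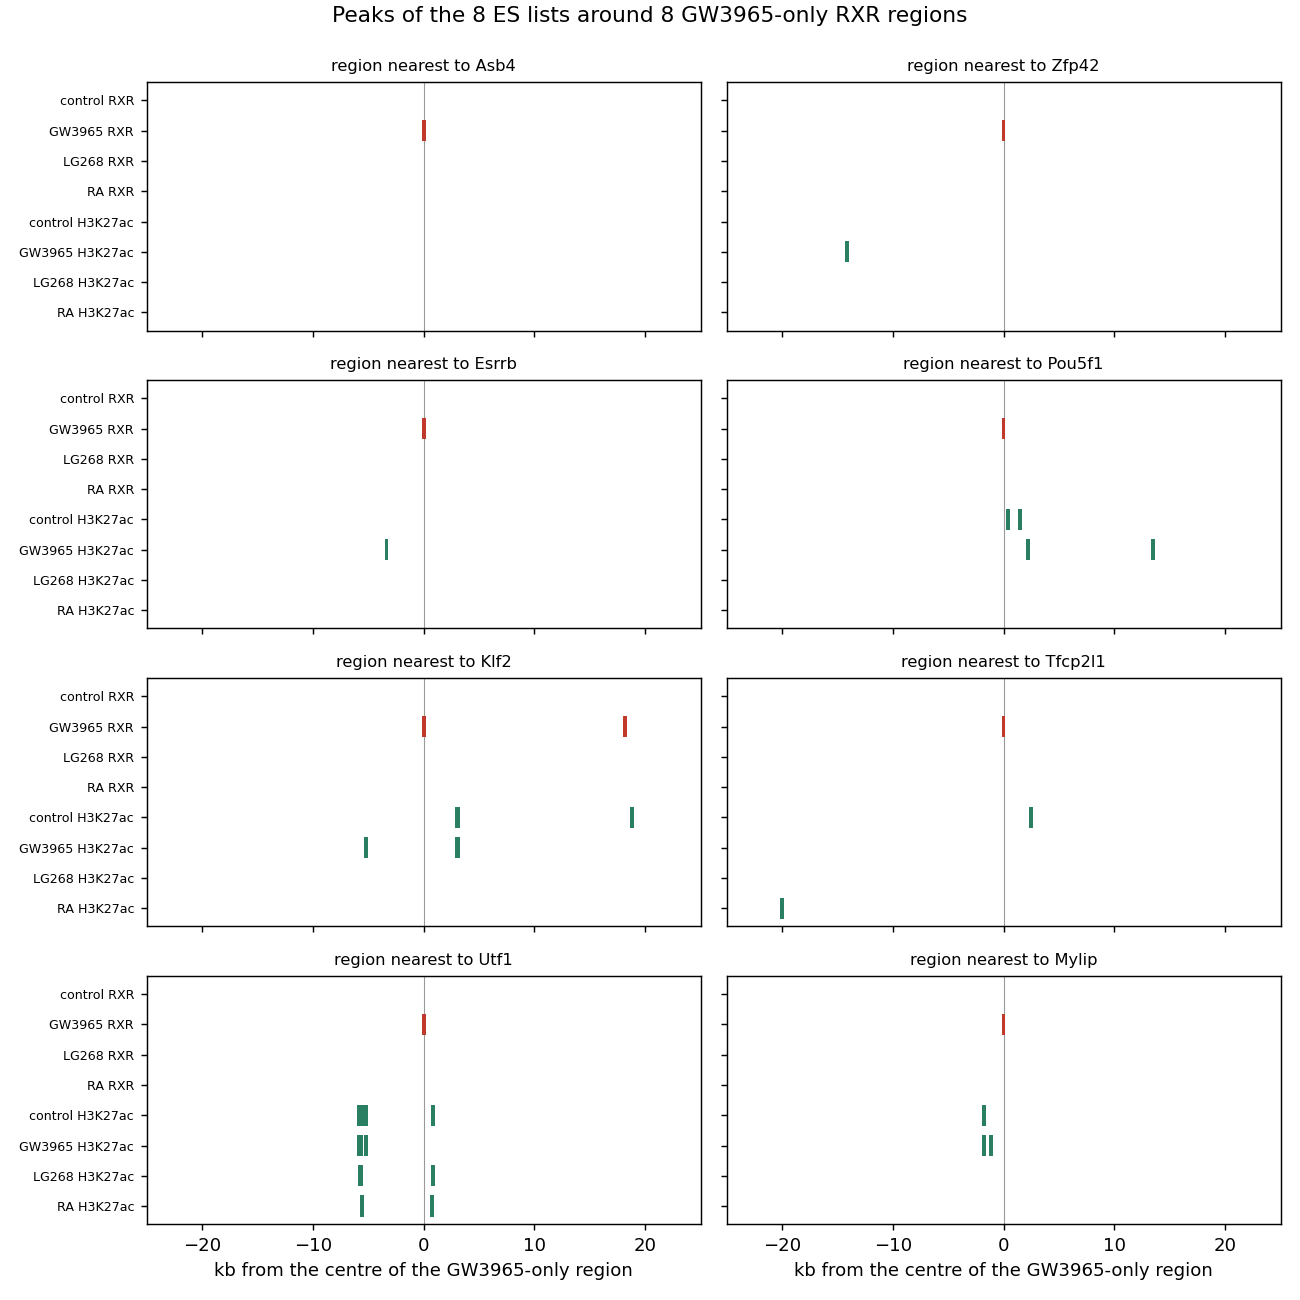
Peaks of the 8 ES lists (rows) around 8 GW3965-only regions, by distance in kb from the region's centre (x axis, in genome order). Red is RXR and green is H3K27ac; peaks are drawn at least 350 bp wide. The Zfp42, Esrrb and Mylip regions had their nearest H3K27ac peak in the GW3965 row, and the Pou5f1, Tfcp2l1 and Utf1 regions lay closer to the control mark than to the GW3965 mark.

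Of 16 LXR target genes, 3 had a GW3965-only region and 8 had a region shared with another list. Abca1, the cholesterol exporter, had a region in intron 5 of 49, 43827 bp from its TSS (score 11.25), with the nearest control and GW3965 H3K27ac peaks 42690 and 42763 bp away. Abcg1, its partner in cholesterol efflux, had 3 regions at 17944 bp upstream (9.57), 1157 bp downstream (5.87) and 9524 bp downstream (4.90), beside a shared region with a score of 31.1. The middle one overlapped the GW3965 mark. Mylip (Idol), a ubiquitin ligase for the LDL receptor, had its region 1960 bp from the TSS (12.60). Both Abca1 and Abcg1 also had a shared region, and Mylip did not.

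Of 20 RAR target genes, 2 had a GW3965-only region and 9 had an RA-only one, against 2.52% and 3.55% of background genes. Aldh1a2, which makes RA, had a region 1849 bp upstream (3.65), and Dhrs3, which reduces retinaldehyde, had one 15788 bp downstream (6.07). Plin2, a lipid droplet coat gene, was the 1 of 17 PPAR targets with a region (6.88, at 20280 bp upstream). Rxra was the 1 of 21 nuclear receptor and coregulator genes, with a region 32211 bp upstream of its TSS (7.69). None of 17 neural progenitor and neuronal genes and none of 10 endoderm, mesoderm and trophoblast genes had one. In lists this short, counts of 0 or 1 are near the background share of 2.52%. Jarid2, a Polycomb-associated factor outside these lists, had 3 regions with scores of 10.19, 5.71 and 3.54.

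**Figure D5:**
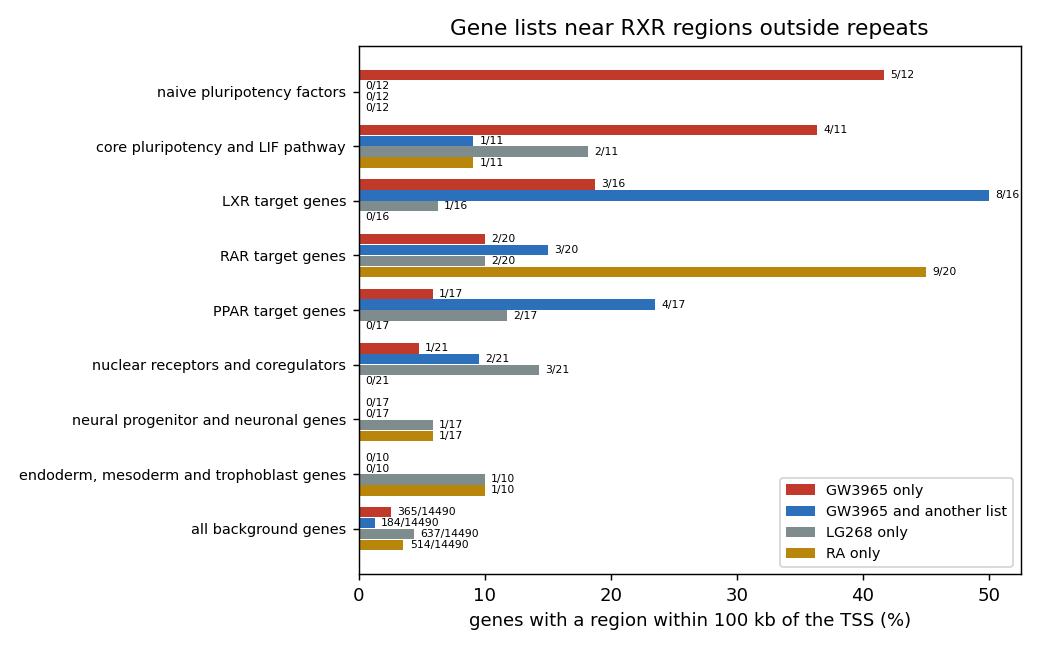
Genes of each list (percent, x axis) with a region within 100 kb of the TSS, by region class (bar colour, with counts), beside all 14490 background genes. Naive pluripotency factors reached 5 of 12 for GW3965-only regions and 0 of 12 for the other classes shown. LXR targets were highest for shared regions with 8 of 16. Background genes were at 1.27 to 4.40% in the classes shown.

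Few GW3965-only regions had an RXR peak during neural differentiation. Each day 8 library overlapped 11 of them, 12 in either (2.75%), against 25.4% of all merged regions. Each day 16 library overlapped 10, the same number in either (2.29%), against 4.47% of all. At day 8 the share was 53.7% in shared, 10.3% in LG268-only and 27.6% in RA-only regions. At day 16 it was 23.9%, 1.19% and 2.05%. With day peaks in repeats still counted, the GW3965-only share was thus below those of the LG268-only and RA-only regions at day 8. At day 16 it was not below them. These shares were not tested. Of the regions in any day list, 10 are among the 13 that overlap a dropped repeat peak of another ES list, and 2 are not. The day lists still held repeat peaks, and with the same repeat filter on them 3 GW3965-only regions (0.688%) had a day 8 peak and 0 had a day 16 peak.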

How the data were processed

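RXR and H3K27ac were measured by ChIP-seq in 12 libraries, each deposited as 1 annotated peak list. The submitters' processing notes name BWA 0.6.0, MACS2 2.0.10 and HOMER 4.2, with the builds mm9 and mm10 in no stated role, and mm10 is the build of the annotation per the file headers. Each peak's score and its distance to the nearest TSS are the authors' deposited values. How the score was made is not given in the sources used here, so it was used only within a list. No read totals are given, so depth and precision per library are unknown, and intervals cover counting error only.

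Regions were built with Python 3.11.15, pandas 2.3.3 and numpy 2.4.6, and tested on simulated lists. Overlap needed at least 1 bp. Shares have exact (Clopper-Pearson) 95% intervals. H3K27ac overlap and the share within 1 kb of a TSS were compared between region classes by two-sided Fisher's exact test (scipy 1.17.1), Benjamini-Hochberg adjusted over 9 tests at 0.05. No test compares ligands as conditions. The members and the 8 gene lists were chosen with earlier results of these data known. Lists were counted over the genes that are nearest to any deposited peak.

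Named genes are the nearest genes of the 25 highest regions, of the 10 highest within 1 kb of a TSS, of the 10 highest that overlap H3K27ac of control or GW3965, genes of the lists within 100 kb, and genes with 3 or more regions; not all of them are described. Alternatives changed the score threshold, list length, repeat filter, merging, windows and region overlap, and left out day replicates. Promoter sequences come from RefSeq (GRCm38.p6).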

Additional observations from a re-analysis of the deposited data

How the results depend on the processing

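All 9 odds ratios kept their direction and stayed past the threshold of 0.05 under the alternatives run. They ranged from 0.0646 to 0.162 (control mark against shared regions), 0.133 to 0.309 (LG268-only) and 0.203 to 0.479 (RA-only), and for the GW3965 mark from 0.0475 to 0.149, 0.0969 to 0.304 and 0.143 to 0.456. The share near a TSS gave 0.120 to 0.290, 0.117 to 0.341 and 0.153 to 0.409. The largest adjusted p was 0.0186 by Fisher's exact test. With only the peaks above each list's median score there were 208 regions, and the other settings gave 423 to 599. With those peaks, 1 core pluripotency and LIF gene and 0 RAR targets had a region. Within 10 kb of a TSS the counts were 1 for naive pluripotency, 2 for core pluripotency and LIF, 1 for RAR, 0 for PPAR and 0 for nuclear receptor genes. The repeat filter on the day lists gave 0.688% for day 8 and 0 for day 16, which allows up to 0.688%. Leaving out either replicate gave 2.52% at day 8 and 2.29% at day 16. The settings on distal regions, on regions without another list's dropped repeat peak, on region centres and on filtered day lists were chosen after seeing the data. No paired analysis was possible because the ES groups have 1 library each and the day results come from no test. Unknown depth limits every statement that a peak was absent.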

Other observations

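A further 15 genes were nearest to 2 GW3965-only regions each, and the ones named here were chosen after their values were seen. Tdh, which encodes the threonine dehydrogenase of mouse ES cells, had regions 8895 bp (score 4.06, exon 2 of 9) and 7090 bp (4.69, intron 1 of 8) from its TSS. The first lay 4 bp from a GW3965 H3K27ac peak and 43104 bp from a control one. Jdp2, a repressor of the AP-1 family, had a region 800 bp upstream (7.79) and one 21268 bp downstream (12.31). Msi2, an RNA-binding protein gene, had intronic regions at 47042 bp (5.69) and 27963 bp (5.12), and only the second had control, GW3965 and LG268 H3K27ac peaks within 1 kb, at 378, 697 and 673 bp. Rfx3, a ciliogenesis factor gene, had one at 78120 bp (5.22) with a control peak at 165 bp and one 171773 bp upstream (9.02), with the nearest control peak at 170345 bp.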
